A study of Mus musculus with 2 samples.

Results

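The chemokines and chemokine receptors of regulatory T cells (Tregs) were read from a pair of two-colour Agilent mouse arrays that set Bcl11b-deficient against wild-type cells. The set held every gene probe whose name in the files began with Ccl, Cxcl, Xcl, Cx3cl, Ccr, Cxcr, Xcr or Cx3cr and a digit, without Ccr9, Ccr10 and Ccrn4l. This gave 51 of 27975 genes, 35 chemokines and 16 receptors, through 66 of 41174 probes. Names are those of the files: Ccl21b is now Ccl21a, Ccl27 is Ccl27a and Cxcr7 is the scavenger receptor Ackr3. Both arrays used mice on the C57BL\6 background. On the Cd4Cre array, Foxp3-GFP+ Tregs sorted from Bcl11bF/F/Cd4Cre/Foxp3-GFP+ mice were set against wild-type Foxp3-GFP+ Tregs. On the Foxp3Cre array, Tregs from Bcl11bF/F/Foxp3Cre mice were set against wild-type Tregs. Cd4Cre deletes floxed alleles in developing T cells before Foxp3 is switched on, so other T cells of those mice also lose the gene, whereas Foxp3Cre deletes them in cells that already express Foxp3. The wild-type pools were made from 3 mice each, and the labels used here give no number for the deficient mice and no ages. Wild type was always in Cy3 and deficient in Cy5, so dye and genotype cannot be told apart. With 1 array per Cre system no ratio has a replicate, and no p-value is given for a single array.

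Chemokines are small secreted proteins that guide leukocytes through receptors coupled to G proteins, and they are named by the spacing of their first cysteines (CC, CXC, XC and CX3C). In Tregs, Ccr7 is known for entry into lymph nodes, Ccr4, Ccr6 and Ccr8 for entry into skin, gut and other barrier tissues, Cxcr3 for sites of type 1 inflammation, and Cxcr5 for B-cell follicles. Inflammatory chemokines such as Ccl3, Ccl4, Ccl5 and Xcl1 are made mainly by activated effector T cells, NK cells and myeloid cells.

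Of the 43379 gene-probe spots on each array, from 20689 to 24439 were well above background in a given pool, and 0 were saturated. The spots of one probe had a median SD of 0.056 (Cd4Cre) and 0.071 (Foxp3Cre) on the log2 scale (245 probes with at least 3 spots), which measures technical spread alone. The log2 signal of Bcl11b was 15.55 in wild type and 13.09 in deficient cells on the Cd4Cre array, and 14.95 and 13.14 on the Foxp3Cre array. Whether its probe lies in the deleted part was not checked here. Foxp3, the transcription factor that defines Tregs, had log2 signals of 12.50 in wild type and 8.93 in deficient cells on the Cd4Cre array, and of 10.02 and 9.82 on the Foxp3Cre array. Foxp3 was above background in all 4 pools. The summed signal of 8 Treg markers in deficient cells was 0.285 times that in wild type on the Cd4Cre array and 1.01 times on the Foxp3Cre array. In such bulk samples, fewer cells of a type and less RNA per cell cannot be told apart.

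On the Cd4Cre array the chemokine system was mostly higher in the deficient cells. Of the 51 genes, 37 were detected, meaning well above background in at least 1 of the 2 channels, and by a mark of 2-fold or more 20 of these were higher and 4 lower in deficient cells. Over all 15872 detected genes, 11.4% were higher and 10.6% lower by that mark. The median log2 ratio of deficient over wild type was 1.11 for the detected set and -0.05 for all detected genes. The 23 detected chemokines included 14 higher and 0 lower (median 1.30), and the 14 detected receptors included 6 higher and 4 lower (median 0.41). Of the 20 higher genes, 18 were above background in both channels. For the others, Cxcl3 and Cxcr7, the measured ratio passed 2-fold but the bound did not (1.999-fold and 1.72-fold). All 4 lower genes were CC receptors. On the Foxp3Cre array, 33 genes were detected, 9 higher and 0 lower by 2-fold or more. The shares over all 15189 detected genes there were 2.94% higher and 11.5% lower, and the medians were 0.51 for the set and -0.08 for all detected genes. These splits move with the scaling. With each array centred on its median in place of loess, higher genes went from 51.8% to 68.4% of all genes past 2-fold on the Cd4Cre array, and from 20.3% to 66.7% on the Foxp3Cre array. The software's own ratio gave 44.7% and 36.4%. Centring also moved the median of all genes to 0.07 and 0.16. Under that centring 20 members were higher and 2 lower on the Cd4Cre array, and 12 higher and 0 lower on the Foxp3Cre array. By the same mark and centring, 18.01% of all detected genes were higher and 8.31% lower on the Cd4Cre array. The shares for the Foxp3Cre array were 13.45% higher and 6.73% lower.

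**Figure D1:**
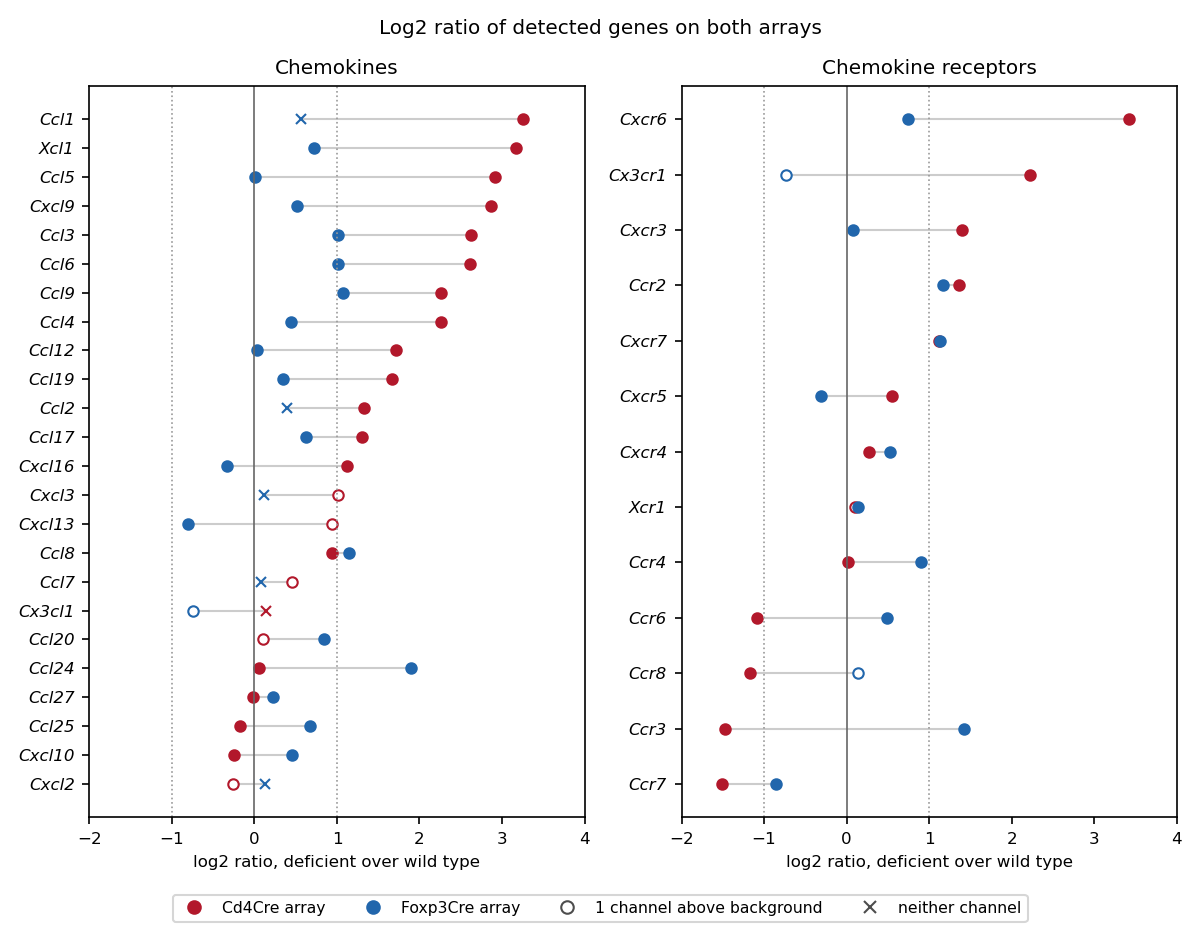
Log2 ratio of deficient over wild type (x axis) for the detected chemokines (left) and the receptors described in the text (right), on the Cd4Cre array (red) and the Foxp3Cre array (blue); open circles had 1 channel above background, crosses neither, and dotted lines mark 2-fold. Red points reach 3.42 for Cxcr6 and 3.26 for Ccl1, blue points do not pass 1.89 (Ccl24), and the 4 red points left of the lower 2-fold line are Ccr3, Ccr6, Ccr7 and Ccr8 (for Cxcr7 the blue point covers an open red one).

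The promoters of the 4 genes with the highest Cd4Cre ratios that had a RefSeq entry, and of Ccr3, whose ratio had opposite signs on the arrays, are printed because the results turn on these genes. Each runs 5′ to 3′ along the gene's strand and covers 300 bases around its start, in RefSeq's GRCm38.p6 coordinates. Cxcr6 lies at chr9:123806227-123806526 (+), Ccl1 at chr11:82179763-82180062 (-), Xcl1 at chr1:164935473-164935772 (-), Cxcl9 at chr5:92328030-92328329 (-) and Ccr3 at chr9:124021721-124022020 (+). Capitals mark matches, on either strand, to a NF-kappaB motif (GGANTTNCC), an AP-1 motif (TGANTCA), a GAS motif of STAT proteins (TTCNNNGAA), a T-box motif (AGGTGTGA), a Runx motif (TGTGGTT) or a TATA box (TATAAA).
Cxcr6: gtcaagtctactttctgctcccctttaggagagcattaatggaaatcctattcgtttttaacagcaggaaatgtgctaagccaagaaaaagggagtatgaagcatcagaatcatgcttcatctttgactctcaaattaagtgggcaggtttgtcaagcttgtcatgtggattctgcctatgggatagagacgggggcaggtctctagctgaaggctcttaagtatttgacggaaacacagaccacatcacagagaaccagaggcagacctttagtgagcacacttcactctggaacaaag
Ccl1: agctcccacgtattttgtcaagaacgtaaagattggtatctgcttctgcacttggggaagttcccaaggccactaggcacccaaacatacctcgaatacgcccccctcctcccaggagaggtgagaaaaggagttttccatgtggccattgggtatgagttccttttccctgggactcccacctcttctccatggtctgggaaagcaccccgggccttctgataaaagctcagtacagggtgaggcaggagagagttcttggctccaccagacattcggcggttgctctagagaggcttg
Xcl1: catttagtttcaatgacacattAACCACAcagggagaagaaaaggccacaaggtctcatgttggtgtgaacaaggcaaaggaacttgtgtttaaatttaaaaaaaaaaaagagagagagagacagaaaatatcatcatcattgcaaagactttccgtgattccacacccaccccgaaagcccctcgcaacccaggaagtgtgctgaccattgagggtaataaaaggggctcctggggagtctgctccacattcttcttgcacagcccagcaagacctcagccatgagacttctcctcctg
Cxcl9: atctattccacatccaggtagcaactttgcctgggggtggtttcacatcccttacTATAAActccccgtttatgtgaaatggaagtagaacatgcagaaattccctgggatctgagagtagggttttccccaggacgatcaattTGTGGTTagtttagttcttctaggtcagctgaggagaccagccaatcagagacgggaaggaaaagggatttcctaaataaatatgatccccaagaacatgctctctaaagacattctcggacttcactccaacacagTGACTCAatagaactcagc
Ccr3: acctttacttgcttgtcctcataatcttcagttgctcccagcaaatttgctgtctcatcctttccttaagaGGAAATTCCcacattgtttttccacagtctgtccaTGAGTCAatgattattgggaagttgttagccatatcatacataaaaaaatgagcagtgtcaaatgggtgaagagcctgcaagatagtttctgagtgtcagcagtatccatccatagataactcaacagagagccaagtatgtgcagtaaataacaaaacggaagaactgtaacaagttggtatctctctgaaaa

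Cxcl9 held a TATA box, a Runx and an AP-1 match, Xcl1 a Runx match, and Ccr3 a NF-kappaB and an AP-1 match, while none of the 6 motifs was in these windows of Cxcr6 and Ccl1. Over the 42 promoters of 38 set genes, the NF-kappaB motif was in 7 (16.7%), against 3.95% of all 32851 promoters of that length. Those 7 belonged to Ccr3, Ccr6, Cxcr7, Cxcl1, Cxcl2, Cxcl3 and Cxcl10. The AP-1 motif was in 8 (19.0% against 7.81%), the TATA box in 13 (31.0% against 13.6%), GAS in 4 (9.52% against 8.30%), Runx in 4 (9.52% against 5.27%) and T-box in 1 (2.38% against 1.28%). A match is a description of the sequence, not a site shown to be bound.

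The inflammatory CC chemokines had the highest ratios of the larger groups. All 9 were detected on the Cd4Cre array, where 7 passed 2-fold upward (median log2 ratio 2.26), and 7 on the Foxp3Cre array, where 4 did (median 1.01). Ccl3, a ligand of Ccr1, had log2 signals of 8.93 in wild-type and 11.55 in deficient cells on the Cd4Cre array and of 9.77 and 10.79 on the Foxp3Cre array, 6.15-fold and 2.02-fold higher. Ccl6 went from 10.10 to 12.71 (6.11-fold) and from 10.48 to 11.49 (2.02-fold). Ccl9 went from 8.74 to 11.00 (4.80-fold) and from 9.50 to 10.56 (2.10-fold). For Ccl3, Ccl6 and Ccl9, which attract myeloid and T cells, both deficient pools lay above both wild-type pools. Without background subtraction Ccl3 and Ccl6 were just under 2-fold on the Foxp3Cre array (Ccl6 at a log2 ratio of 0.98).

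Most other inflammatory CC chemokines passed the 2-fold mark on the Cd4Cre array alone, though the difference between the arrays was not tested. Ccl5, a chemokine stored by effector T cells and NK cells, was at 14.59 in wild-type and 17.51 in deficient cells on the Cd4Cre array (7.55-fold higher) and 15.76 and 15.77 on the Foxp3Cre array. Its second probe gave log2 ratios of 2.48 and 0.22. The Foxp3Cre ratio of Ccl5 depended on the scaling: it was 0.01 with loess, -0.09 by the software and 1.13 with median centring. Ccl4, a close relative of Ccl3, went from 11.57 to 13.84 (4.80-fold) and from 12.18 to 12.63 (log2 ratio 0.44). Ccl2 and Ccl12, both ligands of Ccr2, were 2.50-fold (8.26 to 9.59) and 3.27-fold higher (8.02 to 9.73) on the Cd4Cre array. On the Foxp3Cre array Ccl2 was not above background in either pool, and Ccl12 was at 8.39 and 8.43. Ccl2 was printed on 10 spots, whose SD was 0.087 and 0.093 on the log2 scale. Ccl8 was the one whose ratio was larger on the Foxp3Cre array, at 9.0 and 10.15 (2.22-fold higher) against 10.35 and 11.28 on the Cd4Cre array (1.91-fold). Ccl7, the last of the group, was above background in 1 of the 4 pools, the deficient Cd4Cre pool.

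Further chemokines of effector lymphocytes and the interferon-induced Cxcl9 were among the highest of the set on the Cd4Cre array. Ccl1, the ligand of Ccr8, was at 7.71 in wild-type and 10.97 in deficient cells there (9.55-fold higher), and not above background in either pool on the Foxp3Cre array. Xcl1 (lymphotactin), which attracts cross-presenting dendritic cells through Xcr1, went from 9.79 to 12.96 (8.98-fold) and from 9.62 to 10.35 (log2 ratio 0.73). Cxcl9, a Cxcr3 ligand, went from 9.66 to 12.52 (7.29-fold) and from 10.53 to 11.04 (0.51). Cxcl10, which shares its receptor and lies beside it on chromosome 5, did not follow it on the Cd4Cre array, at 13.01 and 12.76 (log2 ratio -0.24, or 0.10 with median centring), and was at 12.12 and 12.57 on the Foxp3Cre array. Cxcl16, the membrane-anchored ligand of Cxcr6, went from 9.90 to 11.02 (2.18-fold higher) on the Cd4Cre array and from 10.23 to 9.90 on the Foxp3Cre array. Its second probe gave 1.52 and -0.17.

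The remaining chemokines had smaller Cd4Cre ratios than Ccl1, Xcl1 and Cxcl9, and many lay near background. One of them, Ccl24, had the highest Foxp3Cre ratio of the set. Ccl17, a Ccr4 ligand, went from 7.99 to 9.30 (2.47-fold) and from 7.94 to 8.57 (log2 ratio 0.63). Ccl19, a Ccr7 ligand of lymphoid stroma and dendritic cells, went from 8.13 to 9.80 (3.19-fold) and from 8.35 to 8.69 (0.34). The second Ccl19 probe gave log2 ratios of 1.08 and 0.03. Ccl24 (eotaxin 2), a ligand of Ccr3, differed the other way between the arrays: it was at 9.70 and 9.76 on the Cd4Cre array and at 8.95 and 10.85 on the Foxp3Cre array, 3.71-fold higher. The other Ccl24 probe gave log2 ratios of -0.31 and 1.40. Of the 5 neutrophil-attracting CXC chemokines, Cxcl3 was above background in the deficient Cd4Cre pool alone (8.55 against 7.54, a measured log2 ratio of 1.02). As a bound it was at least 1.999-fold higher there, just short of 2-fold. The measured ratio fell under 2-fold without background subtraction (0.77) and with median centring (0.90). None of these 5 was detected on the Foxp3Cre array. Cxcl13, the follicular ligand of Cxcr5, was above background in the deficient but not the wild-type pool on the Cd4Cre array (8.58 against 7.63) and was at 9.18 and 8.37 on the Foxp3Cre array (log2 ratio -0.80). Ccl20, the ligand of Ccr6, was above background in the wild-type channel alone with Cd4Cre and had a log2 ratio of 0.84 with Foxp3Cre. Ccl25 and Ccl27, which draw lymphocytes to gut and skin, lay between -0.18 and 0.68. Cx3cl1, the membrane-anchored ligand of Cx3cr1, was above background in the wild-type Foxp3Cre pool alone. In all, 13 of the 51 genes were not well above background in any pool: 11 chemokines, Cxcl12 and Ccl22 among them, and the receptors Ccr1 and Ccr1l1.

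**Figure D2:**
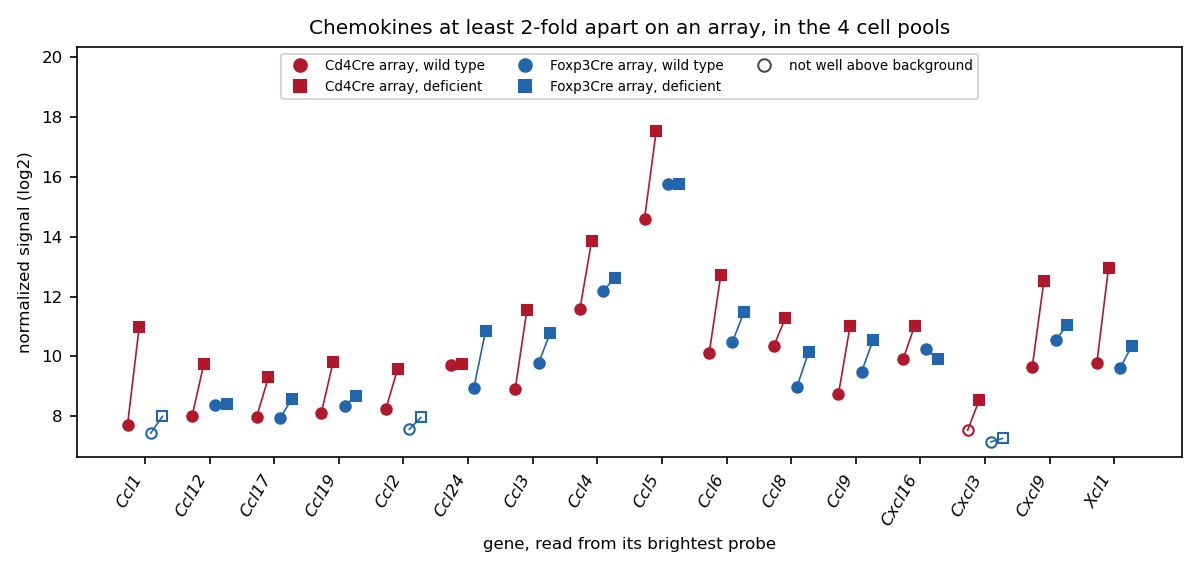
Normalized log2 signal (y axis) of each chemokine at least 2-fold apart on an array, in wild-type (circles) and deficient (squares) pools of the Cd4Cre array (red) and the Foxp3Cre array (blue), 1 pool per symbol; open symbols were not well above background. Ccl5 runs from 14.59 to 17.51 on the Cd4Cre array, and Ccl24 is level on the Cd4Cre array (9.70 and 9.76) while it differs on the Foxp3Cre array (8.95 and 10.85).

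CC receptors differed in both directions on the Cd4Cre array. Of 7 detected, 2 were higher and 4 lower past 2-fold (median log2 ratio -1.08), and on the Foxp3Cre array 3 of 7 were higher and 0 lower (median 0.90). Ccr2, the receptor of Ccl2 and Ccl12, went from 10.83 to 12.19 (2.58-fold) and from 10.86 to 12.03 (2.25-fold), and its second probe gave log2 ratios of 1.07 and 1.21. Both deficient pools lay above both wild-type pools for Ccr2.

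The lymph node receptor Ccr7 and the barrier receptors Ccr6 and Ccr8 were lower past 2-fold on the Cd4Cre array, and Ccr4 was level. Ccr7, the lymph node homing receptor, was at 14.99 in wild-type and 13.49 in deficient cells (2.84-fold lower) on the Cd4Cre array and at 15.35 and 14.50 on the Foxp3Cre array. Both Ccr7 ratios shrank with median centring, to -0.84 and 0.06, so the Foxp3Cre direction turned. Ccr6, the receptor of Ccl20, went from 13.70 to 12.62 (2.11-fold lower; log2 ratio -0.68 with median centring) and from 12.29 to 12.78 (0.49). Ccr8, the receptor of Ccl1, went from 10.38 to 9.21 (2.25-fold lower) on the Cd4Cre array. With Foxp3Cre, Ccr8 was barely above background in wild type (7.90) and not in deficient cells (8.04). Ccr4, another skin homing receptor of Tregs, had log2 signals of 9.83 and 9.86 on the Cd4Cre array and of 9.16 and 10.06 on the Foxp3Cre array (log2 ratio 0.90).

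Ccr3, the eotaxin receptor of eosinophils and basophils, passed 2-fold in opposite directions. It was at 11.97 in wild-type and 10.50 in deficient cells on the Cd4Cre array (2.77-fold lower) and at 11.18 and 12.60 on the Foxp3Cre array (2.69-fold higher). Of the 14374 genes detected on both arrays, 0.125% were lower on the Cd4Cre and higher on the Foxp3Cre array past 2-fold. The reverse pattern was seen in 0 members and 0.32% of all genes. The second Ccr3 probe gave log2 ratios of -0.75 and 1.31. With loess, Ccl24 and its receptor Ccr3 had the highest Foxp3Cre ratios of the set, while by the software ratio Cxcr7 (1.71) was above Ccr3 (1.56). Of 8 mast cell and basophil markers, 5 were detected on each array. With Foxp3Cre 4 were at least 2-fold higher (summed signal 2.53 times wild type), and with Cd4Cre, where Ccr3 was lower, 2 were (2.16 times). Of the 5 detected with Foxp3Cre, 4 were above background in the deficient channel alone, so most of those folds rest on dim wild-type signal. With Cd4Cre 3 of 5 were above background in both channels. The part of these markers in the result was not tested.

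Receptors of the CXC, XC and CX3C classes included 3 higher past 2-fold and 0 lower among the 5 above background in both channels of the Cd4Cre array. With Foxp3Cre 1 was higher and 0 lower among 6. Cxcr6, the receptor of Cxcl16 on activated and tissue-resident lymphocytes, had the largest ratio of the set with loess, though not by the software, where Ccl1 was larger (4.74 against 3.58), or with median centring, where Ccl5 was marginally so (4.01). Cxcr6 was at 12.25 in wild-type and 15.67 in deficient cells on the Cd4Cre array (10.7-fold higher) and at 12.51 and 13.25 on the Foxp3Cre array (log2 ratio 0.74). Cxcr3, the receptor of Cxcl9 and Cxcl10 on type 1 lymphocytes, went from 15.17 to 16.57 (2.65-fold higher) and from 15.10 to 15.18 (0.07, or 1.04 with median centring). Cx3cr1, a receptor of monocytes, NK cells and cytotoxic T cells, went from 8.51 to 10.73 (4.66-fold higher) on the Cd4Cre array. On the Foxp3Cre array Cx3cr1 was above background in wild-type cells (8.76) and not in deficient cells (8.03), at least 1.66-fold lower. The second Cx3cr1 probe was not above background in any pool (log2 ratios 0.29 and -0.22). Cxcr7, which removes Cxcl12 without signalling through G proteins, was above background in the deficient pool alone on the Cd4Cre array (8.34 against 7.23, at least 1.72-fold higher; the measured log2 ratio of 1.11 was 0.82 without background subtraction) and went from 8.29 to 9.42 (2.20-fold higher) with Foxp3Cre.

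Follicle and marrow homing receptors differed less. Cxcr5 was at 13.35 and 13.91 on the Cd4Cre array and at 13.70 and 13.38 on the Foxp3Cre array, with a Foxp3Cre log2 ratio of -0.31 that turned to 0.28 with median centring. Cxcr4, the receptor of Cxcl12, was at 12.16 and 12.43, and at 12.33 and 12.86. Its 2 probes disagreed on the Cd4Cre array, where the other one gave a log2 ratio of -0.57. Xcr1, the receptor of Xcl1 and a dendritic cell marker, was above background in the wild-type channel alone with Cd4Cre and had a log2 ratio of 0.14 with Foxp3Cre.

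**Figure D3:**
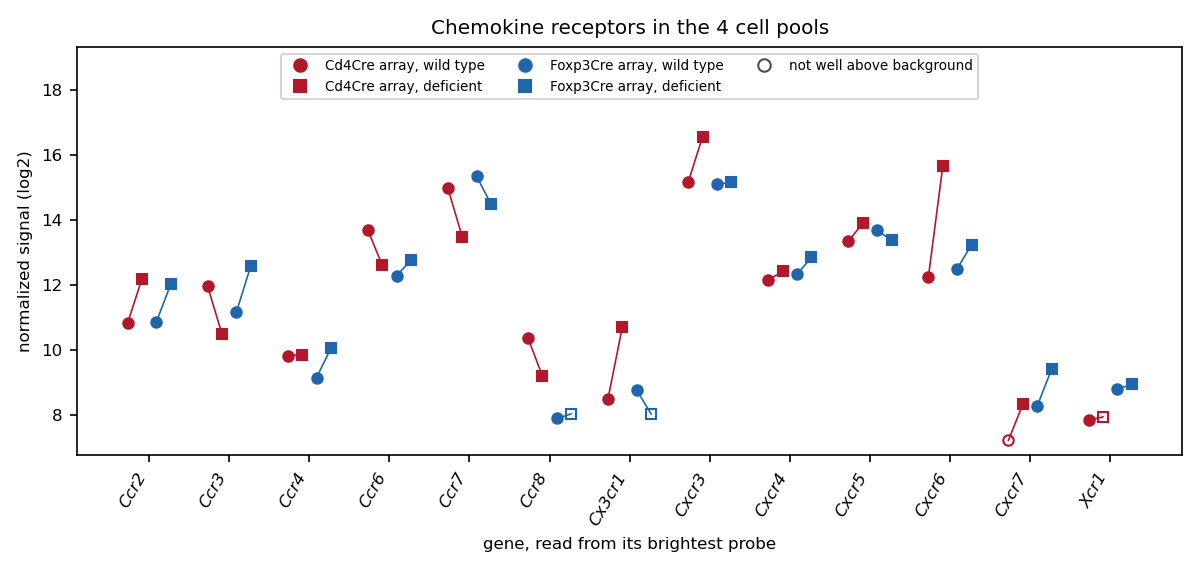
Normalized log2 signal (y axis) of the chemokine receptors described in the text in wild-type (circles) and deficient (squares) pools of the Cd4Cre array (red) and the Foxp3Cre array (blue), 1 pool per symbol; open symbols were not well above background. Cxcr6 spans 12.25 to 15.67 on the Cd4Cre array, and the lines of Ccr3 run in opposite directions on the 2 arrays.

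Set side by side, 32 genes were detected on both arrays. By measured ratio 6 of these passed 2-fold upward on both, among them Ccl3, Ccl6, Ccl9 and Ccr2, against 1.34% of all 14374 genes detected on both. One of the 6, Cxcr7, was above background in the deficient channel alone with Cd4Cre, where its bound was 1.72-fold. Of the 26 members above background in all 4 pools, 5 passed 2-fold on both arrays, against 1.27% of 12441 genes. At least 2-fold lower on both were 0 members, against 4.56% of all genes. Ratios were above 0 on both arrays for 21 (30.2% of all genes), below 0 on both for 1, Ccr7 (37.9%), and of opposite sign for 10 (31.9%). Several of these signs belong to ratios near 0: with median centring the counts were 19, 0 and 13 (42.1%, 29.7% and 28.2% of all genes), and by the software ratio 18, 1 and 13. Both deficient pools lay above both wild-type pools for 18 of the 32 (18.2% of all genes), 11 chemokines and 7 receptors, and below both for 1, again Ccr7 (22.7%). Some of the 18 cleared this mark barely: Ccl5 (15.77 against 15.76), Cxcr3 (15.18 against 15.17), Ccr4 (9.86 against 9.83) and Ccl12 (8.43 against 8.39). Cxcr4 is counted by its brightest probe, while its other probe was lower in the deficient Cd4Cre pool (11.52 against 12.09). The ratio was larger in size on the Cd4Cre array for 22 of 32 members, and for 7958 of all 14374 genes. Across the 32 genes the ratios of the arrays had a Pearson r of 0.070 and a Spearman rho of 0.070, against 0.476 and 0.496 over all genes. These describe genes of 1 array pair with the same dye orientation, and no p is given.

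**Figure D4:**
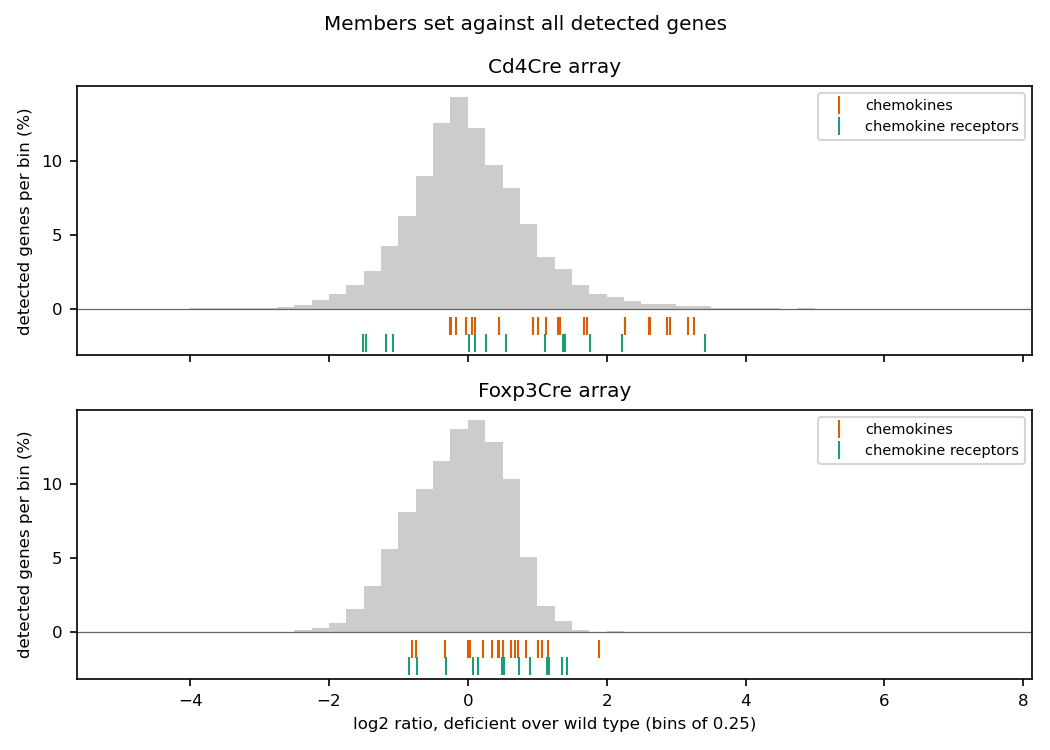
Share of all detected genes (grey bars, y axis in percent) by log2 ratio of deficient over wild type (x axis, bins of 0.25) on the Cd4Cre array (top) and the Foxp3Cre array (bottom), with the detected chemokines (orange ticks) and receptors (green ticks) below. Set medians of 1.11 and 0.51 lie to the right of the medians of all genes, -0.05 and -0.08.

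Treating the arrays as a pair of measurements, limma tested the mean ratio against 0, with the difference between Cre systems counted as spread. With Benjamini-Hochberg adjustment over all 14374 genes it called 0 of the 32 members and 0.0% of all genes, while 15 members, and 22.6% of all genes, had an unadjusted p under 0.05. The lowest adjusted p among members was 0.100 in limma, shared by Ccl3 (mean log2 ratio 1.82 ± 0.43 SE), Ccl6 (1.81) and Ccl9 (1.67) among others, each higher on 2 of 2 arrays. With median centring, limma called 312 of 14374 genes and 1 of the 32 members. With signal required in both channels of both arrays, it called 39 of 12441 genes and 0 of 26 members.

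Neighbouring genes of one cluster did not all share a direction. On chromosome 11 (mm9), the 5 genes Ccl5, Ccl9, Ccl6, Ccl3 and Ccl4, between positions 83339296 and 83478111, were all higher on the Cd4Cre array, by 4.80-fold to 7.55-fold. The neighbouring group of Ccl2, Ccl7, Ccl11, Ccl12, Ccl8 and Ccl1 (81850650 to 81990395) ran from Ccl11, not above background, to Ccl1 at 9.55-fold. In the receptor cluster of chromosome 9, Cxcr6 and Ccr2 were higher on the Cd4Cre array and Ccr3, which lies between them, was lower. Cx3cr1 and Ccr8, neighbours on the same chromosome (119959018 to 120003500), differed in direction there too. The 60-base probes of different members shared at most 14 identical bases in a row over 2130 probe pairs.

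The wild-type pools also differed between arrays. Of 30 members above background in both, 3 were at least 2-fold brighter in the Cd4Cre wild-type pool, Ccr8 (by 2.48 on the log2 scale), Ccr6 (1.41) and Ccl8 (1.35), and 1 was dimmer, Ccl5 (-1.17). This was 13.3% of the members, against 18.8% of all genes. Array, slide and Cre system cannot be told apart in this comparison.

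Signalling genes downstream of chemokine receptors were more often lower than higher past 2-fold with loess. Of 47 listed, 46 had a probe. On the Cd4Cre array all 46 were detected, 4 higher and 11 lower past 2-fold (median -0.29, or 0.39 with median centring). With Foxp3Cre 45 were detected, 1 higher and 16 lower (median -0.35, or 0.12). Shares over all detected genes were 11.4% higher and 10.6% lower with Cd4Cre, and 2.94% and 11.5% with Foxp3Cre. Lower past 2-fold on both arrays were, among others, the receptor kinase Grk6 (log2 ratio -1.57 and -2.05), the arrestin Arrb1 (-1.81 and -1.37), the phospholipase Plcb2 (-1.69 and -1.19) and the Rac activator Dock2 (-1.14 and -1.57), which drives lymphocyte migration. With median centring these 4 stayed below 0 on both arrays, but Grk6 (-0.82) and Dock2 (-0.82) with Cd4Cre and Arrb1 (-0.97) with Foxp3Cre no longer passed 2-fold. Rgs1 and Rgs16, which shorten G protein signals, had log2 ratios of -1.91 and -2.24 on the Cd4Cre array, and of 0.85 and -0.53 on the Foxp3Cre array. Rgs18, a regulator of platelets and myeloid cells, was higher on both (2.72 and 1.38), and the G protein subunit Gng2 on the Cd4Cre array (2.28, against 0.33).

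Other chemoattractant receptors numbered 17 detected of 22 on each array. On the Cd4Cre array 6 were at least 2-fold higher and 1 lower, and on the Foxp3Cre array 5 were higher and 2 lower. Over all detected genes, 11.4% were higher and 10.6% lower with Cd4Cre, and 2.94% and 11.5% with Foxp3Cre. Higher on both were the formyl peptide receptor Fpr2 (2.69 and 1.74) and the complement receptor C5ar2 (1.53 and 1.25), and Ltb4r1, the leukotriene B4 receptor, was higher on the Cd4Cre array (2.67, against 0.86). The sphingosine phosphate receptors S1pr1, needed for exit from lymph nodes, and S1pr4 had log2 ratios of -0.17 and -0.42 on the Cd4Cre array and of -1.17 and -1.57 on the Foxp3Cre array. S1pr1 turned to 0.67 on the Cd4Cre array and stood at -0.23 on the Foxp3Cre array with median centring. Among 10 atypical receptors and chemokines outside the naming rule, Ackr2, a scavenger of inflammatory CC chemokines, was higher on the Cd4Cre array (log2 ratio 2.14, against 0.30). For the platelet chemokine Pf4 the Cd4Cre array gave a bound of at least 1.94-fold higher, and the Foxp3Cre array a log2 ratio of 2.51. Of 7 platelet and megakaryocyte markers, 4 were detected with Cd4Cre, where Pf4 was the only 1 above 0 (median -0.19). With Foxp3Cre 3 were detected, and Pf4 alone passed 2-fold (median 0.25).

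Markers of other cells also differed between the pools. The summed signal of 8 NK cell markers went from 10152 to 195724 on the Cd4Cre array (19.3 times; 7 of 8 genes at least 2-fold higher) and from 25643 to 33675 on the Foxp3Cre array (1.31 times; 2 of 8). Neutrophil markers, 9 of the 10 listed having a probe, went from 3267 to 248766 on the Cd4Cre array (76.2 times, 8 of 9 higher). On the Foxp3Cre array they went from 36959 to 167161 (4.52 times, 7 of the 8 detected higher). With Cd4Cre 3 of the 9 neutrophil and 1 of the 8 NK cell markers were above background in the deficient channel alone. These sums rest in part on dim wild-type signal. The 2 CD8 T cell markers summed to 2.44 and 1.01 times wild type. The sums of 7 dendritic cell markers, the member Xcr1 among them, were 4.16 and 1.08 times, and of 8 B cell markers 2.72 and 0.98 times. With Cd4Cre 4 of 7 detected dendritic cell and 2 of 7 detected B cell markers were at least 2-fold higher. With Foxp3Cre 0 of either were, and 5 of 7 detected B cell markers were below 0. Of 12 monocyte and macrophage markers, 3 were at least 2-fold higher and 5 lower on the Cd4Cre array, where the sum was 3.03 times wild type. With Foxp3Cre 0 were higher and 1 lower, at 1.17 times. Salivary gland markers were at 0.065 times wild type on the Foxp3Cre array, 7 of 7 detected being lower. The part of these cells in the chemokine and receptor ratios was not tested.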

How the data were processed

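RNA of sorted Tregs was amplified and labelled by the Kreatech ULS method, per the labels' protocols, and scanned images went through Agilent Feature Extraction, in version 10.5.1.1 (Cd4Cre) or 10.7.3.1 (Foxp3Cre) per the file headers and 10.5.1 per the submitters' processing notes. The authors deposited per spot the mean and background intensity of each channel, and the software's red-to-green log10 ratio, its error and its p-value. The deposited value table equalled that log10 ratio (largest difference 0), with a median of 0 on each array.

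From the intensities, background was corrected by normexp (offset 50) and each array's ratios were loess-normalized in limma 3.58.1 (R 4.3.3). Control spots had weight 0, outlier spots (137 and 155) were dropped and replicate spots averaged. Each gene took the values of its brightest probe and was counted as higher or lower at 2-fold (log2 ratio of 1). Channel signals were put on one scale by Aquantile. Where 1 channel alone was above background, the fold is a bound set against the dim signal or, if higher, the channel's lowest signal well above background, open to dye bias. The limma fit was intercept-only over both arrays, with 1 array per Cre system as its replicate and a threshold of 0.05. The limma fit was tested on simulated ratios, with the same effect placed on both arrays. That simulation held no difference between Cre systems and no dye bias, so it does not bear on either.

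Every gene of the naming rule could be named, with full values for those at least 2-fold apart on an array and for the detected receptors; other listed genes were named where at least 2-fold apart. The members and lists were chosen with earlier results of these data known, and the motif letters were chosen after the values were seen (a longer NF-kappaB form, with a further leading G, was searched first and is not shown). Symbols and promoters came from RefSeq tables of GRCm38.p6, used for names and printed promoters; probe positions are mm9, as in the files. Alternatives in background correction, scaling, probe rule, filter and call rule were run. The values of 1 member are not reported here; it stays in the counts.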

Additional observations from a re-analysis of the deposited data

Results flagged for a closer look

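Ccr3, Ccr6, Ccr8, Cx3cr1 and Cxcl16 were at least 2-fold apart on the Cd4Cre array and had the opposite sign on the Foxp3Cre array. The log2 ratios of deficient over wild type on the Cd4Cre and the Foxp3Cre array were -1.47 and 1.43 for Ccr3, the eotaxin receptor. They were -1.08 and 0.49 for Ccr6, and -1.17 and 0.14 for Ccr8, whose deficient Foxp3Cre pool was not above background. They were 2.22 and -0.73 for Cx3cr1, likewise not above background in the deficient Foxp3Cre pool, and 1.13 and -0.33 for Cxcl16. Each Cre system has 1 array, so the difference was not tested for any of these genes.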

How the results depend on the processing

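Of the 262 alternative values of the 33 single ratios at least 2-fold apart, 122 equal the main value by construction (such as a filter that the gene passes). The other 140 kept their direction, and 7 of them, of 6 results, fell under 2-fold. Smaller ratios changed sign under at least 1 scaling or probe rule for Ccl5, Ccl12, Ccr7 and Cxcr5 on the Foxp3Cre array and for Ccl24, Ccr4, Cxcl10, Cxcr4 and Xcr1 on the Cd4Cre array. The count of higher members ranged from 18 to 22 on the Cd4Cre array and from 7 to 12 on the Foxp3Cre array. The count of lower members was 4 on the Cd4Cre array, and 2 with median centring, where Ccr6 (-0.68) and Ccr7 (-0.84) fell short. On the Foxp3Cre array it was 0, and 2 by the software's own ratio: Cx3cr1 (-1.17) and Cx3cl1 (-2.05), each above background in the wild-type channel alone. The Cd4Cre median of detected members, 1.11, was 0.88 without background subtraction, 1.19 with offset 10, 1.39 by the software ratio, 0.43 with no filter on dim probes and 1.35 with signal required in both channels. The Foxp3Cre median, 0.51, was 0.83 with median centring, 0.65 by the software ratio and 0.25 with no filter, which adds dim probes. Median centring let limma call 1 member, and the cause of these shifts was otherwise not tested. The median of the software's error for ratios past 2-fold was 0.327 and 0.247 (log2). No paired analysis was possible because each Cre system has 1 array. A slide block was not run, since each slide held 1 array of this series.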
